A study of Mus musculus with 2 samples.

Results

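The genes *Mitf*, *Tfec*, *Otx1*, *Otx2*, *Pax6*, *Lhx2*, *Six3*, *Six6* and *Rax* encode transcription factors that set the fates of the optic cup. They were taken by symbol from the gene list of the count files, where each symbol belonged to 1 gene, and make up 9 of the 32285 genes counted. The study compared cells of mouse eye cups at E17.5 from the *Myrf* humWT/humWT strain and the *Myrf* humdG/humdG strain, with 1 droplet library per genotype (humWT and humdG below). Both strains are homozygous. The humWT allele was made in C57BL/6J eggs and the humdG allele from humWT carriers, and in both the last coding exon of mouse *Myrf* is replaced by the human exon. The study calls the 3′ untranslated sequence endogenous in its results and human in its methods. In the humdG allele the human exon carries a change that shifts the reading frame at the C-terminus, modelled on a splice-site mutation of patients, so the humWT strain is the matched control. The sample labels give 3 pooled eye cups per library. The methods instead count both eyes of 3 mice, and keep the cornea that the labels' protocol takes off, and that protocol names another *Myrf* line, so the dissection cannot be settled from these sources. With 1 pooled library per genotype there is no replicate and no test. Every interval given is a 95% interval for counting error alone, which leaves out differences between embryos, dissections and preparations.

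In the early optic vesicle the same neuroepithelium can form retina or retinal pigment epithelium (RPE). *Rax*, *Pax6*, *Six3*, *Lhx2* and *Six6* act in the eye field and later in retinal progenitors. MITF, with its relatives TFEC and TFEB, and the OTX proteins act in the pigment epithelium, where MITF and OTX2 switch on genes of melanin synthesis. Several of the genes are used again later. OTX2 acts in photoreceptor precursors, PAX6 in amacrine cells, lens and surface ectoderm, and MITF in melanocytes and in cells of the macrophage line.

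The humWT library held 129135207 transcripts, counted by unique molecular identifiers (UMIs), in 17421 barcodes, and the humdG library 114319529 UMIs in 19565 barcodes. After filters, 16166 and 18173 cells were kept, with medians of 3785 and 2625 UMIs per cell, and 86 of the kept barcodes occurred in both libraries. Clustering without the 9 genes gave 23 clusters, of which 18 were named from markers as 14 classes. The other 5 clusters, with 29.2% of the humWT and 48.4% of the humdG cells, were not named. The RPE-like class held 490 humWT and 389 humdG cells with medians of 3449.5 and 2486 UMIs. It raised 6 of 9 RPE markers, among them *Ttr* and *Rlbp1*, but *Rpe65*, *Best1* and *Lrat*, which mark mature RPE, had between 1 and 4 UMIs per library there. *Myrf*, the altered gene, stood at 292 CPM (UMIs scaled to a class total of 1000000) in humWT and 200 CPM in humdG RPE-like cells. The last coding exon of *Myrf* is human sequence in both strains, and the study's descriptions of its 3′ end differ. The libraries read 3′ ends. How fully *Myrf* was counted was not tested, and this level cannot tell the alleles apart. Retinal progenitor-like cells numbered 1785 and 3012, with medians of 8334 and 8606 UMIs.

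Red blood cell-like cells, 494 in humWT and 254 in humdG with medians of 4103 and 4144.5 UMIs, served as cells that should lack these genes, so their UMIs are used here as a measure of free RNA in the droplets. The summed level of 8 retinal progenitor markers in them was 456 CPM in humWT and 917 CPM in humdG. The summed level of the 6 pigment markers that RPE and melanocytes share went the other way, at 336 CPM in humWT and 152 CPM in humdG. The level in these cells is therefore used as a comparison below, and a level no higher than theirs is read as background. The 8 red blood cell markers took up 475320 CPM of the humWT and 567524 CPM of the humdG total in these cells. The same free RNA could thus give another CPM in classes of other content or depth, and no correction for this was made.

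Promoter windows of 300 bases, from 250 bases before to 50 bases after a transcription start, were found in the RefSeq table of the GRCm38.p6 build for 7 of the 9 genes, in 14 windows. Windows of *Mitf* and *Otx2* are shown because these were the members that stood higher in RPE-like cells in both libraries. The letters TAATTA, a core bound by homeodomain proteins, lay in 3 of the 14 windows, all of *Mitf* or *Otx2*, and in 5.29% of all 32851 windows. TAATCC, the core preferred by OTX-type homeodomains, lay in 2 of the 14 windows and in 7.06% of all windows. CATGTG, bound by MITF-family proteins, lay in 1 of the 14, a second *Otx2* start, and in 14.2% of all windows. CACGTG lay in none of the 14 and in 7.15% of all windows. All were searched on both strands, where TAATCC also reads as GGATTA and CATGTG as CACATG, while the other motifs read alike on each strand. The first window below precedes the most 3′ of 3 listed *Mitf* starts, on the plus strand of chromosome 6, and the second is an *Otx2* start on the minus strand of chromosome 14. Both printed windows are among the 3 with TAATTA, while other listed windows of *Mitf* and *Otx2* lack it. Which start the RPE-like cells used was not tested, so neither window is shown as one in use there. The same holds for melanocyte-like cells, the named class with the highest *Mitf* CPM. Capitals mark TAATTA and, on either strand, TAATCC, and a match describes the letters only.
Mitf chr6:97991533-97991832: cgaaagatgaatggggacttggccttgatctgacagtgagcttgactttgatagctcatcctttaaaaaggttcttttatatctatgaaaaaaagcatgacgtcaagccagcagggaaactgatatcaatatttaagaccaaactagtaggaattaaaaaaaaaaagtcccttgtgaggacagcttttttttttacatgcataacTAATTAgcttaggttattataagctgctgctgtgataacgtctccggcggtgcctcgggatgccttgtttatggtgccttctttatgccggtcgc
Otx2 chr14:48665060-48665359: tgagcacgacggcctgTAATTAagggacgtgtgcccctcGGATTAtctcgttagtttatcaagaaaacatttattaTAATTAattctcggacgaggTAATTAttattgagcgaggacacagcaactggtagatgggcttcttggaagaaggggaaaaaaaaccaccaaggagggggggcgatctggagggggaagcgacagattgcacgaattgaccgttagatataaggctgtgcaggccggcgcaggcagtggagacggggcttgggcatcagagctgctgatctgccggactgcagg

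*Mitf*, the basic helix-loop-helix factor of pigment cells (ENSMUSG00000035158, GRCm38 chromosome 6 from 97807052 to 98021349, plus strand), was highest among the named classes in melanocyte-like cells and second in RPE-like cells, in both libraries. Melanocyte-like cells held 1142 *Mitf* UMIs in humWT (647 CPM, by an exact Poisson interval 610 to 685) and 560 in humdG (603 CPM, 554 to 655). RPE-like cells held 1299 UMIs in humWT (337 CPM, 319 to 356) and 635 in humdG (265 CPM, 245 to 287). Their intervals did not overlap with those of melanocyte-like cells in either library. Macrophage-like cells followed at 77.4 CPM in humWT and 53.8 CPM in humdG, the latter not apart from cartilage-like cells at 65.5 CPM. Retinal progenitor-like cells had 12.7 and 6.25 CPM, against 15.7 CPM in humWT and 2.66 CPM in humdG red blood cell-like cells.

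*Otx2*, the homeobox factor shared by RPE and photoreceptors (ENSMUSG00000021848, chromosome 14 from 48657677 to 48673819, minus strand), stood in RPE-like cells at 414 CPM in humWT (1594 UMIs, 394 to 434) and 413 CPM in humdG (989 UMIs, 388 to 440). The 2 libraries were almost level. Photoreceptor precursor-like cells were higher, with 664 CPM in humWT and 818 CPM in humdG, as were neurogenic-like cells with 622 and 548 CPM. These 3 classes kept the same order in both libraries, and each neighbouring pair was apart by more than counting error. All other named classes lay between 11.2 and 46.7 CPM in humWT and between 4.74 and 57.8 CPM in humdG, where red blood cell-like cells had 34.1 and 49.6 CPM. Schwann and neural crest glia-like, melanocyte-like and mesenchyme-like cells were below that level by more than counting error in both libraries.

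*Tfec*, a relative of *Mitf* (ENSMUSG00000029553, chromosome 6 from 16833373 to 16898441, minus strand), had 1 UMI in humWT and 0 in humdG RPE-like cells. A count of 0 in the humdG class allows up to 1.25 CPM, by the floor of 3 counts. Its UMIs lay mostly in macrophage-like cells, with 109 UMIs in humWT (38.0 CPM, 31.2 to 45.9) and 62 in humdG (34.8 CPM, 26.7 to 44.6), of 133 and 71 in all cells kept. At this depth *Tfec* was thus not detectable above background in RPE-like cells at E17.5.

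*Otx1*, the paralog of *Otx2* (ENSMUSG00000005917, chromosome 11 from 21994764 to 22002897, minus strand), was sparse in RPE-like cells, with 21 UMIs in humWT (5.45 CPM, 3.37 to 8.33) and 26 in humdG (10.9 CPM, 7.1 to 15.9). Red blood cell-like cells had 3 and 0 UMIs. The highest class was surface epithelium-like cells at 64.5 CPM in humWT (51.9 to 79.3) and 55.3 CPM in humdG (39.8 to 74.7). Melanocyte-like cells held 1 and 0 *Otx1* UMIs.

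**Figure D1:**
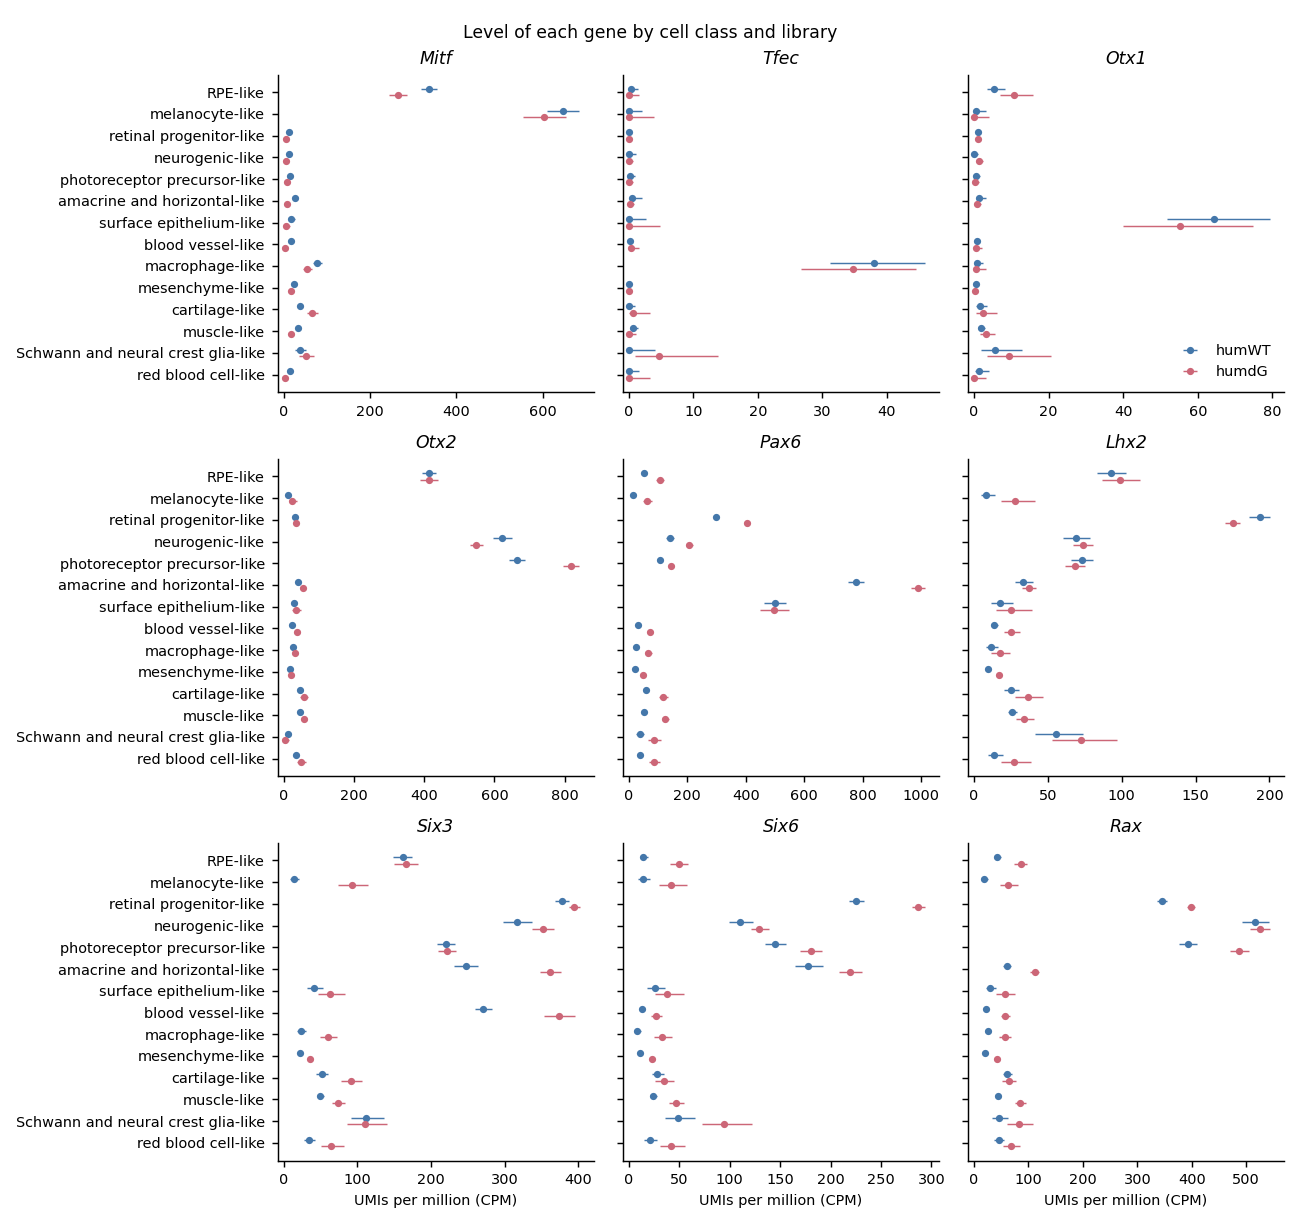
Level of each gene in CPM (horizontal axis, linear, a different range for each gene) in the 14 named classes (rows), with 1 point per library and exact Poisson 95% intervals. *Mitf* is highest in melanocyte-like and RPE-like cells, *Tfec* stands out only in macrophage-like cells and *Six3* is also high in blood vessel-like cells.

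The genes of the eye field were highest in retinal classes. *Pax6*, a paired-box homeodomain factor (ENSMUSG00000027168, chromosome 2 from 105668900 to 105697364, plus strand), peaked in amacrine and horizontal-like cells at 776 CPM in humWT and 987 CPM in humdG, then in surface epithelium-like cells at 499 and 496 CPM and retinal progenitor-like cells at 299 and 405 CPM. RPE-like cells had 205 *Pax6* UMIs in humWT (53.2 CPM, 46.2 to 61.0) and 253 in humdG (106 CPM, 93.1 to 120). Red blood cell-like cells had 39.5 CPM (31.7 to 48.6) and 86.7 CPM (70.4 to 106). RPE-like cells were thus 1.35 times (1.04 to 1.75) the background in humWT and 1.22 times (0.962 to 1.56) in humdG.

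*Six6*, a homeobox factor of the retina and hypothalamus (ENSMUSG00000021099, chromosome 12 from 72939892 to 72944899, plus strand), was highest in retinal progenitor-like cells at 225 CPM in humWT (218 to 233) and 287 CPM in humdG (280 to 293). RPE-like cells had 14.3 CPM (55 UMIs, 10.7 to 18.6) and 49.3 CPM (118 UMIs, 40.8 to 59.0), while red blood cell-like cells had 20.6 CPM (15.1 to 27.5) and 41.6 CPM (30.6 to 55.3). In both libraries the interval of the ratio to background held 1.

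*Rax*, the retina and anterior neural fold homeobox gene (ENSMUSG00000024518, chromosome 18, minus strand), was highest in neurogenic-like cells at 516 CPM in humWT and 525 CPM in humdG, then in photoreceptor precursor-like cells at 392 and 488 CPM and retinal progenitor-like cells at 346 and 399 CPM. RPE-like cells had 42.8 CPM (165 UMIs, 36.5 to 49.9) and 85.7 CPM (205 UMIs, 74.3 to 98.2), beside 45.3 CPM (36.9 to 55.0) and 67.3 CPM (53.0 to 84.2) in red blood cell-like cells. Neither library placed RPE-like cells above background by more than counting error.

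*Lhx2* and *Six3*, in contrast, were above background in RPE-like cells. *Lhx2*, a LIM-homeodomain factor needed from optic vesicle to optic cup (ENSMUSG00000000247, chromosome 2 from 38339281 to 38369733, plus strand), stood there at 92.9 CPM in humWT (358 UMIs, 83.5 to 103) and 99.0 CPM in humdG (237 UMIs, 86.8 to 112). That was 6.68 times (4.62 to 9.98) and 3.61 times (2.48 to 5.43) the level in red blood cell-like cells. The RPE-like class was second to retinal progenitor-like cells, at 193 and 175 CPM, in both libraries.

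*Six3*, a homeobox factor of the anterior neural plate and eye (ENSMUSG00000038805, chromosome 17 from 85613608 to 85629302, plus strand), stood in RPE-like cells at 161 CPM in humWT (622 UMIs, 149 to 175) and 165 CPM in humdG (396 UMIs, 150 to 183). This was 4.73 times (3.73 to 6.09) and 2.56 times (1.99 to 3.33) background. Retinal progenitor-like cells had 378 and 394 CPM. Blood vessel-like cells were also high, with 271 CPM in humWT (2172 UMIs, 260 to 283) and 374 CPM in humdG (1268 UMIs, 354 to 395), whereas *Rax*, *Six6* and *Lhx2* in them were at or below the level in red blood cell-like cells. Of the blood vessel-like cells with at least 5000 UMIs, 66.2% in humWT and 72.6% in humdG had a *Six3* UMI. Of those with *Six3*, 99.0% and 97.8% also had a UMI of *Cdh5*, the cadherin of endothelial cells, beside 93.1% and 94.1% of those without.

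Within each library, RPE-like and retinal progenitor-like cells were then compared for the 7 members with at least 100 UMIs over both classes and libraries, which left out *Tfec* and *Otx1*. *Mitf* and *Otx2* were at least 2-fold higher in RPE-like cells in both libraries, 2 of 7 members where 11.7% of 13286 genes passed this limit. *Mitf* was 26.5 times higher in humWT (log2 4.73, exact conditional binomial interval 4.51 to 4.95) and 42.5 times higher in humdG (log2 5.41, 5.16 to 5.66). *Otx2* was 13.0 times higher in humWT and 12.0 times higher in humdG. In retinal progenitor-like cells neither gene was above red blood cell-like cells by more than counting error, so these folds are set against a background level. *Pax6*, *Six3*, *Six6* and *Rax* were at least 2-fold lower in both, 4 of 7 members where 17.6% of genes were. *Six3* differed least of these, by 2.34 and 2.38 times. *Lhx2* was 2.08 times lower in humWT and 1.77 times lower in humdG, so it passed the limit in humWT alone. The classes were made from clusters in which none of the 9 genes took part, and no member was a marker, but progenitor and pigment genes took part in the clustering.

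**Figure D2:**
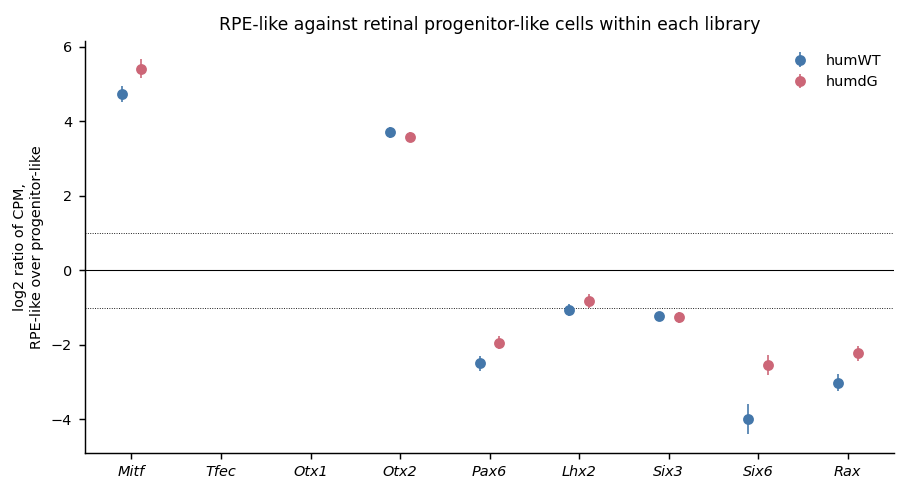
The log2 ratio of CPM in RPE-like over retinal progenitor-like cells (vertical axis) for the 7 genes with at least 100 UMIs, with 1 point per library and exact 95% intervals for counting error; dotted lines mark 2-fold. *Mitf* and *Otx2* lie above the upper line in both libraries, and *Lhx2* lies near the lower one.

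The share of cells with a UMI was also read. A *Mitf* UMI was found in 46.3% of humWT and 31.4% of humdG RPE-like cells, where the background cells gave 6.88% and 1.18%. After random thinning of every cell to a depth of 1000 UMIs (49 humWT and 367 humdG cells of any class were too shallow), the RPE-like shares were 15.9% (exact Clopper-Pearson interval 12.8% to 19.5%) and 12.4% (9.29% to 16.1%). For *Otx2* they were 22.2% and 19.1%, down from 56.1% and 50.1% before thinning. *Pax6* was found in 6.12% of thinned humWT and 13.4% of thinned humdG RPE-like cells, and in 4.29% and 8.84% of thinned red blood cell-like cells. *Rax* was found in 5.31% and 13.7% of thinned RPE-like cells, and in 4.29% and 6.83% of thinned red blood cell-like cells, so its share in humdG stood further above background than its CPM did. In all, 67 of 490 humWT and 36 of 389 humdG RPE-like cells had no UMI of any of the 9 genes, and the median cell had UMIs of 2 of them.

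**Figure D3:**
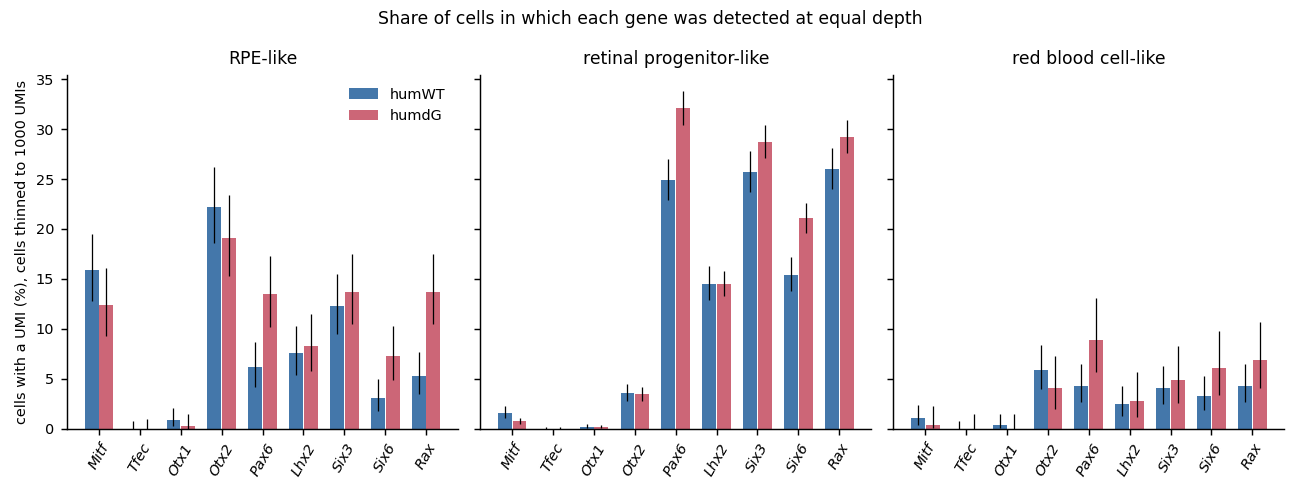
Share of cells (percent, vertical axis from 0) with a UMI of each gene after each cell was thinned to 1000 UMIs, in RPE-like, retinal progenitor-like and red blood cell-like cells, with exact Clopper-Pearson 95% intervals. *Mitf* and *Otx2* stand out in RPE-like cells, and *Pax6*, *Six3*, *Six6* and *Rax* in retinal progenitor-like cells.

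The question the design puts to these genes is whether they differ between the genotypes, foremost in the RPE, where *Myrf* acts. In RPE-like cells *Otx2*, *Lhx2* and *Six3* were almost level between the libraries, *Mitf* was somewhat lower in humdG, and *Pax6*, *Six6* and *Rax* were higher in humdG. The log2 ratio of humdG over humWT was −0.00 for *Otx2* (−0.12 to 0.11), 0.09 for *Lhx2* (−0.15 to 0.33), 0.04 for *Six3* (−0.15 to 0.22) and −0.35 for *Mitf* (−0.48 to −0.21). It was 0.99 for *Pax6* (0.72 to 1.26), 1.79 for *Six6* (1.32 to 2.28) and 1.00 for *Rax* (0.70 to 1.31). Of the 7 members with at least 100 UMIs, 3 were thus past 1.5-fold higher in humdG and 0 past 1.5-fold lower, while 3.42% of 7687 genes were past that limit higher and 7.56% lower. *Otx1*, with too few UMIs to be counted, was at 1.00 (0.11 to 1.90). The median over the 7 was 0.09 and over all genes −0.02. The *Mitf* ratio moved with how the class was drawn, to −0.73 when cells were taken by marker gates in place of clusters and to −0.09 in the 286 humWT and 149 humdG RPE-like cells without a UMI of 6 retinal markers, a set chosen after the values were seen.

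The 3 genes past the limit are those that RPE-like cells did not hold above red blood cell-like cells by more than counting error, but for *Pax6* in humWT. In red blood cell-like cells themselves the log2 ratio of humdG over humWT was 1.14 for *Pax6* (0.71 to 1.57), 1.01 for *Six6* (0.39 to 1.63) and 0.57 for *Rax* (0.12 to 1.01). It was 0.98 for *Lhx2*, 0.92 for *Six3* and 0.54 for *Otx2* there, and −2.56 for *Mitf*, from 35 and 3 UMIs. It was also above 0 in macrophage-like cells, at 1.33, 2.04 and 1.15, and in blood vessel-like cells, at 1.26, 1.06 and 1.33. It was −0.01 for *Pax6* in surface epithelium-like cells, where *Pax6* is far above the red blood cell-like level. In cartilage-like cells it was 1.01 for *Pax6*, 0.28 for *Six6* and 0.06 for *Rax*. There the median over all genes was 0.55, and 47.1% of genes were past 1.5-fold higher in humdG, so these ratios lie in a class shifted as a whole. The part of these UMIs in the RPE-like ratios was not tested. In the RPE-like cells the summed level of 8 retinal progenitor markers was 843 CPM in humWT and 1336 CPM in humdG, that of 11 neurogenic markers 209 and 399 CPM, that of 10 photoreceptor precursor markers 112 and 211 CPM and that of 8 red blood cell markers 4443 and 7381 CPM, with none of these markers at 0 but 1 photoreceptor precursor marker in humWT. The 12 retinal ganglion cell markers, none at 0, summed to 151 and 278 CPM. Other lists went the other way, with the 9 RPE markers at 6788 and 5059 CPM and the 12 mesenchyme markers at 2797 and 1310 CPM, none of them at 0. The part of these differences in the ratios was not tested either. With the red blood cell-like level subtracted, the log2 ratio was 0.47 for *Pax6*, −0.29 for *Mitf*, −0.34 for *Six3* and −0.06 for *Otx2*. *Six6* and *Rax* were then at or below 0 in humWT and above 0 in humdG RPE-like cells, so they had no ratio. Of the 5 members that kept a ratio, 0 were past the limit, which says nothing of *Six6* and *Rax*.

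**Figure D4:**
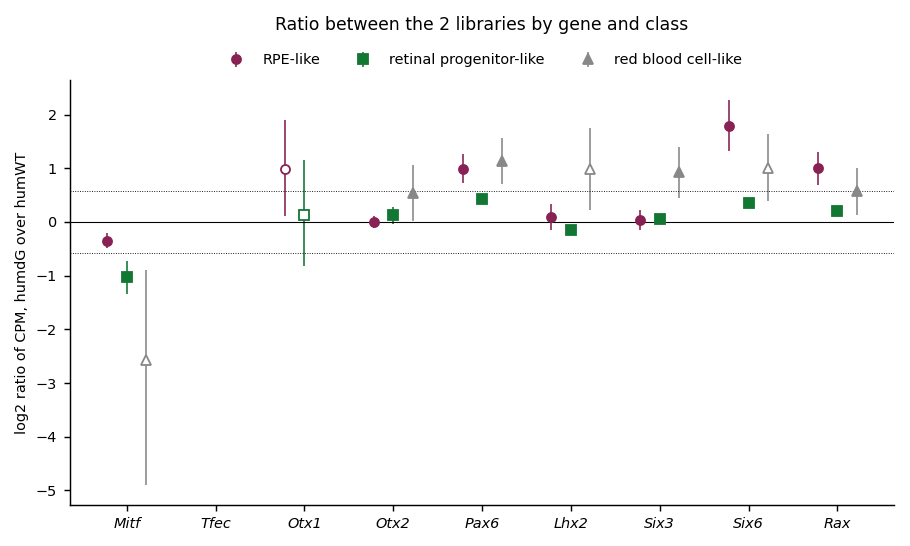
The log2 ratio of CPM in humdG over humWT (vertical axis) for each gene in RPE-like, retinal progenitor-like and red blood cell-like cells, with exact 95% intervals for counting error; open symbols have under 100 UMIs, dotted lines mark 1.5-fold and *Tfec* has no ratio. *Pax6*, *Six6*, *Rax* and, as an open symbol, *Otx1* lie above the upper line in RPE-like cells, and in red blood cell-like cells *Pax6*, *Six6*, *Lhx2* and *Six3* lie above it.

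The RPE-like cells ranged widely in depth, and the levels differed with it. This split by depth was chosen after the values were seen. Cells under 5000 UMIs numbered 332 in humWT and 292 in humdG, and cells of at least 15000 UMIs numbered 74 and 49. *Mitf* stood at 133 CPM in shallow and 467 CPM in deep humWT cells, and at 89.3 and 387 CPM in humdG. *Otx2* stood at 199 and 510 CPM in humWT and at 223 and 529 CPM in humdG. In the deep cells *Mitf* was found in 98.6% and 98.0% and *Otx2* in 100% and 100% of cells.

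*Pax6*, *Six6* and *Rax* were lower in the deeper cells. *Pax6* stood at 86.1 CPM in shallow and 39.4 CPM in deep humWT cells, and at 187 and 53.4 CPM in humdG. *Rax* stood at 82.2 and 24.2 CPM in humWT and 184 and 35.4 CPM in humdG. *Six6* stood at 35.6 and 5.70 CPM in humWT and 106 and 22.0 CPM in humdG. In the shallow cells these levels were above those of red blood cell-like cells in both libraries (39.5 and 86.7 CPM for *Pax6*, 45.3 and 67.3 CPM for *Rax*, 20.6 and 41.6 CPM for *Six6*). In the deep cells *Rax* and *Six6* were below the red blood cell-like level in both. *Pax6* in the deep cells was level with it in humWT and below it in humdG. The red blood cell-like cells had medians of 4103 and 4144.5 UMIs, so their CPM is no background matched in depth to either group. How far depth alone shifts the CPM of free RNA was not tested. In the deep cells the log2 ratio of humdG over humWT was 0.44 for *Pax6* (−0.05 to 0.92) and 0.55 for *Rax* (−0.07 to 1.15), so the interval of each held 0, and 1.95 for *Six6* (0.93 to 3.06), from 12 and 28 UMIs. *Mitf* stayed lower in humdG at each depth, with log2 ratios of −0.57, −0.37 and −0.27 from shallow to deep, and the interval of the middle one, −0.77 to 0.02, held 0. *Otx2* stayed within 0.18 of 0 on the log2 scale at each depth. *Six3*, almost level over the whole class, was at 0.54 (0.16 to 0.93), −0.44 (−0.89 to 0.00) and 0.01 from shallow to deep. *Lhx2* was at 0.36, −0.22 and 0.13, and each of its intervals held 0. *Otx1*, with 12 UMIs in humWT and 20 in humdG, was 1.46 higher on the log2 scale in the deep humdG cells (0.36 to 2.63).

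**Figure D5:**
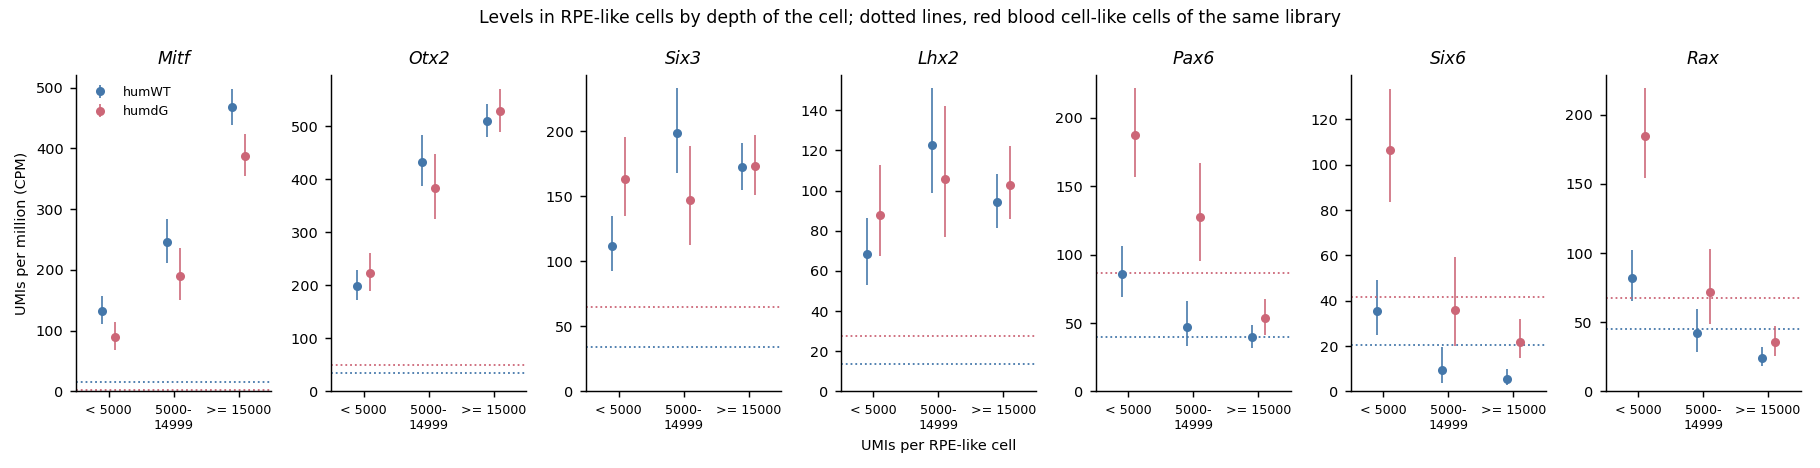
Level in CPM (vertical axis from 0, a different range for each gene) of 7 genes in RPE-like cells of under 5000, 5000 to under 15000 and at least 15000 UMIs, with 1 point per library and exact Poisson 95% intervals; dotted lines give the level in red blood cell-like cells of the same library. *Mitf* and *Otx2* are higher in deeper cells, and *Pax6*, *Six6* and *Rax* lower, down to 39.4, 5.70 and 24.2 CPM in humWT.

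In retinal progenitor-like cells the genotype ratios of *Pax6*, *Six6* and *Rax* were closer to level than in RPE-like cells. That of *Mitf* was further from level, and those of *Lhx2*, *Otx2* and *Six3* slightly so. Of 7 members with at least 100 UMIs, 0 were past 1.5-fold higher in humdG, where 2.43% of 12740 genes were, and 1 was past it lower, where 6.14% were. The gene past it was *Mitf*, at 12.7 CPM in humWT (198 UMIs) and 6.25 CPM in humdG (165 UMIs), log2 −1.03 (−1.33 to −0.72), in humWT no higher than in red blood cell-like cells. *Pax6* was 1.35 times (1.31 to 1.40) as high in humdG, *Six6* 1.27 times and *Rax* 1.15 times, and these 3 are abundant here. *Lhx2* was 0.906 times (0.865 to 0.949) as high, and *Six3* 1.04 times.

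Among the later users of these genes, *Otx2* in photoreceptor precursor-like cells was 0.30 higher in humdG on the log2 scale (0.24 to 0.36), while in neurogenic-like cells it was −0.18 (−0.26 to −0.10). *Mitf* in melanocyte-like cells was −0.10 (−0.25 to 0.05). *Tfec* in macrophage-like cells was −0.13 (−0.60 to 0.33) and *Otx1* in surface epithelium-like cells −0.22 (−0.79 to 0.32). *Pax6* in surface epithelium-like cells, where it is far above background, was −0.01 (−0.19 to 0.18). *Pax6* in amacrine and horizontal-like cells was 0.35 (0.28 to 0.41), and *Mitf* in macrophage-like cells −0.52 (−0.89 to −0.17). These 8 ratios all lay within 1.5-fold, though the intervals of *Tfec*, *Otx1* and *Mitf* in macrophage-like cells reached past it. In these classes 1.95% to 5.36% of all genes with at least 100 UMIs were past that limit higher in humdG, and 4.29% to 7.93% lower. Other members were past it there, among them *Rax* at 0.89 (0.67 to 1.11) and *Mitf* at −1.62 (−2.12 to −1.13) in amacrine and horizontal-like cells.

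Other regulators of the same fate choice were counted from a list, beside the same background of 3.42% of genes past 1.5-fold higher in humdG and 7.56% lower in RPE-like cells. Of 9 regulators of the pigment epithelium side, 8 had at least 100 UMIs in RPE-like cells, with 0 higher and 2 lower. These were *Tfeb*, a relative of *Mitf*, and *Sox9*, which acts with MITF and OTX2. *Tfeb* stood at 26.2 CPM in humWT and 9.61 CPM in humdG (101 and 23 UMIs, log2 −1.45, −2.17 to −0.78). *Sox9* stood at 244 and 131 CPM (log2 −0.90, −1.08 to −0.71). In retinal progenitor-like cells *Tfeb* was at −1.19 (35 and 26 UMIs) and *Sox9* at −0.11. Neither was split by depth, and the part of free RNA in their ratios was not tested. In RPE-like cells *Tead1*, *Yap1* and *Wwtr1* of the Hippo pathway were at −0.39, −0.34 and −0.15, and *Ctnnb1*, which encodes β-catenin, at −0.17. The orphan nuclear receptor genes *Nr2f1* and *Nr2f2* were at 0.33 and 0.11.

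Among regulators of the retina side, *Sox2* and *Hes5* were past 1.5-fold higher in humdG. *Sox2*, a factor of neural progenitors, stood at 14.3 CPM in humWT and 26.7 CPM in humdG (log2 0.91), and *Hes5*, a Notch target, at 67.7 and 150 CPM (1.14). Both are among the 8 retinal progenitor markers, which summed to 456 CPM in humWT and 917 CPM in humdG red blood cell-like cells. The part of free RNA in these 2 ratios was not tested, and *Hes5* was not split by depth. The log2 ratio was 0.49 for *Hes1*, 0.41 for *Tbx2*, 0.12 for *Meis1*, −0.19 for *Meis2*, −0.36 for *Foxd1* and −0.48 for *Vax2*, all within 1.5-fold. In the deepest RPE-like cells *Sox2* was 15.2 CPM in humWT and 12.6 CPM in humdG, log2 −0.27 (−1.24 to 0.63).

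Known targets of MITF or OTX2 stood closer to level. Of 14, 12 had at least 100 UMIs and 0 were past 1.5-fold in either direction, with a median log2 ratio of −0.07. The melanin enzymes *Tyr* and *Tyrp1* were at −0.04 and 0.30, *Dct* at −0.29 and the melanosome protein gene *Pmel* at 0.17. Lowest were *Oca2*, *Ttr* and *Trpm1*, at −0.56, −0.56 and −0.52, as *Myrf* was at −0.55. These ratios are over cells of all depths, and those split by depth differed with it. From cells under 5000 to cells of at least 15000 UMIs, *Dct* went from 0.80 to −0.45 and *Pmel* from 0.96 to 0.06. Over the same range *Ttr* went from −0.17 to −0.58 and *Myrf* from −0.10 to −0.63. *Dct* and *Pmel* were thus past 1.5-fold higher in the shallow humdG cells. The other targets were not split by depth. In retinal progenitor-like cells 9 of 11 targets with at least 100 UMIs were past 1.5-fold lower in humdG, beside 6.14% of all genes there, and the shared pigment markers summed to 179 CPM in humWT and 88.5 CPM in humdG, and in red blood cell-like cells to 336 and 152 CPM.

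Some members have a long non-coding RNA beside them. *Six3os1*, which overlaps *Six3* on the other strand, stood in RPE-like cells at 191 CPM in humWT and 198 CPM in humdG and in blood vessel-like cells at 243 and 260 CPM. *Otx2os1*, which overlaps *Otx2* on the other strand, was 756 CPM in humWT (2914 UMIs) and 527 CPM in humdG (1262 UMIs) in RPE-like cells, log2 −0.52 (−0.62 to −0.42), where *Otx2* itself was level. In photoreceptor precursor-like cells, which were higher than RPE-like cells for *Otx2*, *Otx2os1* was lower, at 265 and 217 CPM. The lower *Otx2os1* level in humdG was not particular to RPE-like cells. Its log2 ratio was −1.09 in retinal progenitor-like, −1.53 in muscle-like, −0.75 in mesenchyme-like and −0.29 in photoreceptor precursor-like cells. It was 0.01 in neurogenic-like, 0.03 in red blood cell-like and 1.38 in cartilage-like cells. *Pax6os1* had 16 and 14 UMIs in RPE-like cells. The sources used here do not state how reads of overlapping genes were assigned.

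The genes most like each member were taken over 26 points, 13 classes in 2 libraries, by Pearson's r of log2(CPM + 1). The points share libraries and their free RNA, so the values are a description. *Six3os1* was most like *Six3* (r = 0.971), and *Pax6os1* was among the 3 most like *Pax6* (0.926). *Mitf* was most like *Bfsp2* (0.932) and next to *Bhlhe41* and *Rab27a*, the latter a gene of melanosome transport. *Tfec* was most like *Tnfaip8l2* (0.987), with *Trem2*, a macrophage receptor, close after it. *Otx1* was most like *Upk3bl* (0.949), *Otx2* most like *Rtn4rl1* (0.905), *Lhx2* most like *Gldc* (0.954), *Six6* most like *Epha5* (0.954) and *Rax* most like *Btbd17* (0.969). Between members, *Six6* and *Rax* were most alike (0.864), and *Mitf* was least like *Pax6* (−0.456).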

How the data were processed

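Eye cups of 2 strains were profiled with droplet 3′ libraries, 1 pooled library per genotype. The authors deposited raw counts, whole UMIs per gene and barcode, made with Cell Ranger 7.1.0 against mm10 per the submitters' processing notes. Whether intronic reads were counted is not given in the sources used here. The members and gene lists were chosen with earlier results of these data known.

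Barcodes needed over 500 genes, and less than 15% of their UMIs from mitochondrial genes. Scrublet's own threshold marked 1 humWT and 0 humdG cells as doublets and was taken not to have worked, so the 5% of each library with the highest scores were removed. Cells were integrated and clustered in Seurat 5.3.0 (20 dimensions, resolution 0.5) with the 9 members left out of the variable genes. Clusters were named from marker lists. UMIs were summed per class and library and scaled to CPM. Exact Poisson, Clopper-Pearson and conditional binomial intervals cover counting error only. No test between genotypes was possible. A gene was compared in a class where its UMIs summed to 100 or more, and a ratio past 1.5-fold was counted. All members were named. Interval scripts were tested on simulated data. Gene positions are from GENCODE M21. Earlier libraries that the methods processed with these were not analysed here. For regulators of the retina side 1 gene is not reported here, so no count over that list is given.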

Additional observations from a re-analysis of the deposited data

Results flagged for a closer look

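Cluster 21, which was not named and entered no main comparison, held *Mitf* at 1063 CPM in humWT and 1191 CPM in humdG, above every named class. It held *Otx2* at 517 CPM in humWT and 647 CPM in humdG, *Pax6* at 155 and 254 CPM and *Lhx2* at 61.7 and 92.5 CPM. These values were singled out because they lie in cells outside the main comparisons and above the level in red blood cell-like cells of the same library. The cluster had 74 humWT and 16 humdG cells, raised 4 RPE markers without any of them among its leading genes, and was led by *Ankfn1*, *Otx2os1*, *Pde1c* and *Oca2*. Counted as RPE-like, an alternative chosen after seeing the data, it moved the log2 ratio of humdG over humWT of *Mitf* in that class to −0.50 and left the same 3 members past 1.5-fold.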

How the results depend on the processing

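No paired analysis was possible because each genotype had 1 library. With the red blood cell-like level subtracted, 0 members were past 1.5-fold in RPE-like cells and 0 in retinal progenitor-like cells, and 0 were at least 2-fold higher in RPE-like cells. *Pax6* in RPE-like cells went from 0.99 to 0.47. The other members that left these counts had no ratio, since nothing remained of *Six6* and *Rax* in humWT RPE-like cells or of *Mitf* and *Otx2* in humWT retinal progenitor-like cells, so the counts say nothing of those. In RPE-like cells of at least 15000 UMIs, an alternative chosen after seeing the data, 0 members were past 1.5-fold, with *Six6* and *Rax* under 100 UMIs and so not counted. The other alternatives kept these 4 counts within 1.5 times. Of the log2 ratios between genotypes, 149 of the recomputed values lay within the interval of the main value and 24 did not. Of those between classes 102 did and 75 did not. Across alternatives *Mitf* in RPE-like cells ranged from −0.73 to −0.09, *Otx2* from −0.11 to 0.15, *Six3* from −0.34 to 0.36 and *Pax6* from 0.44 to 1.15. With 1 library per genotype, depth limits only the counting error.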
